A study of Arabidopsis thaliana with 6 samples.

Results

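Aquaporins are the membrane channels through which plant cells pass water and small uncharged solutes, and the Arabidopsis genome encodes 35 of them in the PIP, TIP, NIP and SIP subfamilies. All 35 were chosen by locus identifier, and 28 of them had values among the 18368 genes used here. Of these 28, 26 reached a mean of 10 normalized counts over the 6 libraries and were tested together with the other genes of the table (16771 tested in all). The other 7 of the 35, TIP1-3, TIP3-1, TIP3-2, TIP5-1, NIP4-1, NIP4-2 and NIP7-1, were not analysed here. Gene names follow the deposited table, which calls *PIP1-2*, *PIP1-4* and *PIP2-2* PIP1B, PIP1.4 and PIP2B, and gene positions are those of TAIR10.

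RNA was sequenced from wild-type Col-0 seedlings to learn how long-term cold changes their transcripts. The 4-week-vernalized seedlings (4v, 3 libraries) spent 28 days at 5 °C after a first 7 days at 22 °C and were 35 days old. The non-vernalized seedlings (0v, 3 libraries) were kept for 11 days at 22 °C. No transgene or mutation was present in either group, and each replicate was a separate plate of whole seedlings. Temperature, age and stage of growth changed together between the groups and cannot be told apart. In bulk RNA of whole seedlings, fewer cells of a type and less transcript per cell cannot be told apart either.

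A level is given below as a normalized count, which is the number of reads of a gene divided by a size factor of its library. Libraries held from 1636687 to 23141488 reads in 4v and from 1645379 to 20005225 reads in 0v. One library of each group, 4v replicate 2 and 0v replicate 3, was far deeper than the other 4. These deep libraries also gave the lowest value of their group for 18 (4v) and 19 (0v) of the 28 aquaporins. The highest 0v value was that of 0v replicate 1 for 20 of the 28. These counts were not made over all genes, so whether they are particular to the aquaporins is not known. A difference is given as the log2 fold change of 4v over 0v on the scale log2(normalized count + 4), with its standard error (SE). It was called where limma, with Benjamini-Hochberg adjustment over all genes tested, gave an adjusted p under 0.05.

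The PIPs are the channels of the plasma membrane and set how much water roots and leaves let through. PIP2 proteins conduct water well by themselves, whereas PIP1 proteins often need a PIP2 partner to reach the membrane. The TIPs lie in the tonoplast, the membrane of the vacuole, where some also pass ammonia or urea. The NIPs carry solutes such as boric acid and arsenite rather than mainly water, and the SIPs are small basic channels of the endoplasmic reticulum.

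More aquaporin transcripts fell than rose in the cold-grown seedlings. Of the 26 tested, 9 fell in 4v (34.6%, against 6.99% of all genes tested) and 1 rose (3.85%, against 6.46% of all genes tested), while 16 did not pass. The 9 were *PIP1-1*, *PIP1-3*, *PIP1-5*, *PIP2-2*, *TIP1-2*, *TIP2-1*, *TIP2-2*, *TIP2-3* and *SIP1-1*, and the gene that rose was *PIP2-5*. The 3 values in 4v lay below all 3 values in 0v for 14 of the 26 (53.8%, against 18.7% of all genes tested) and above them for 3 (11.5%, against 20.5%). The median log2 fold change of the 26 was -0.67, beside 0.05 over all genes tested. Without 0v replicate 3 the counts were 14 lower and 1 higher (8.57% and 9.01% of all genes tested), and with the 4 shallow libraries alone they were 9 lower and 0 higher (3.5% and 3.31% of all genes tested).

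**Figure D1:**
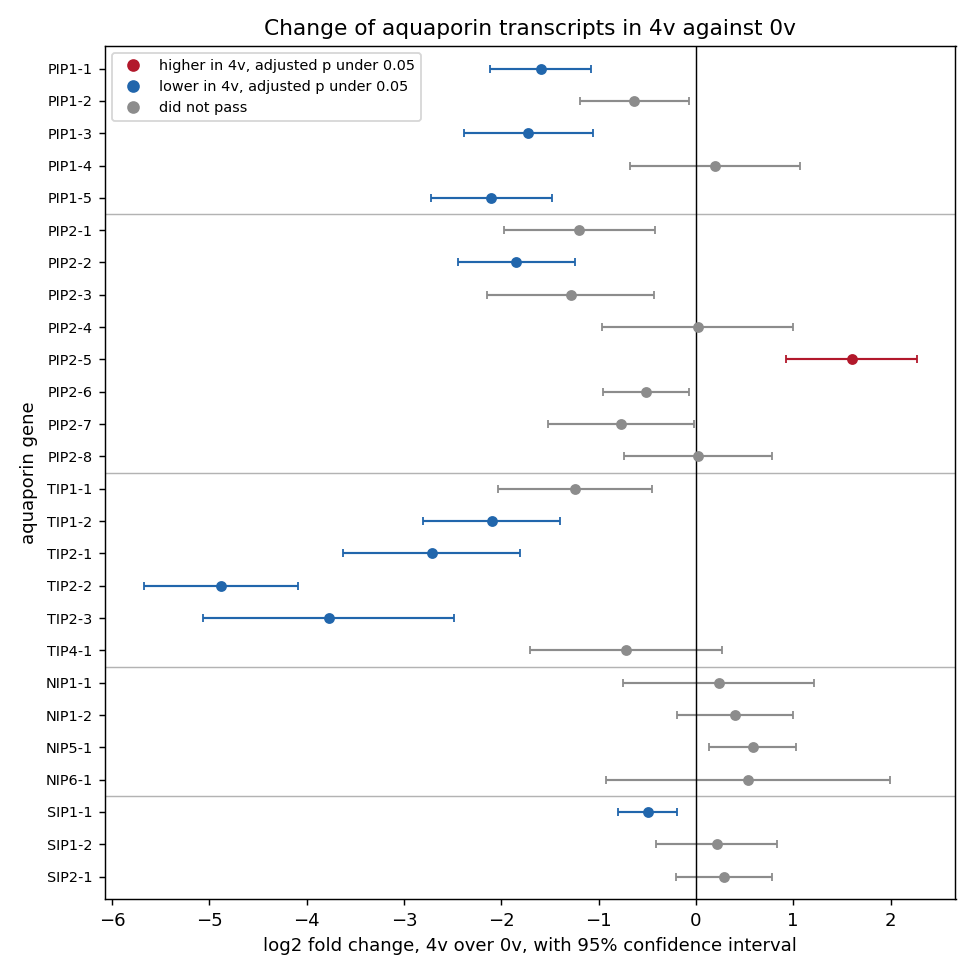
Log2 fold change of 4v over 0v (horizontal axis) with its 95% confidence interval for each of the 26 tested aquaporin genes (vertical axis), grouped from the top as PIP1, PIP2, TIP, NIP and SIP. The 9 genes in blue were lower at an adjusted p under 0.05 and reach -4.88 at *TIP2-2*, *PIP2-5* in red was higher at 1.60, and the 4 NIP genes all lie to the right of 0 without passing.

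By subfamily, the members that fell were mostly TIP and PIP1 genes. In the TIP subfamily 4 of 6 tested members fell (6.99% of all genes tested fell and 6.46% rose) and the median log2 fold change was -2.41. In PIP1 3 of 5 fell, with a median of -1.60. In PIP2 1 of 8 fell and 1 rose, with a median of -0.64. None of the 4 tested NIP genes passed, and their log2 fold changes were all positive, with a median of 0.47. At an unadjusted p under 0.05 1 of the 4 NIP genes was higher (limma), where 16.5% of all genes tested were higher and 15.5% lower. The number of NIP genes that rose was 0 with edgeR, 0 with DESeq2 and 2 with limma-voom, which called 5.64%, 6.62% and 14.9% of all genes tested higher and 7.17%, 8.35% and 13.8% lower, in that order of tools. Among the SIPs 1 of 3 fell and the median was 0.21. Whether the subfamilies differ from each other was not tested.

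Summed over members per kb of transcript, the aquaporins reached 11499 ± 1923 in 4v and 32034 ± 9645 in 0v (SD, n = 3 each), so that the sum in 0v was 2.79 times that in 4v. The TIP genes accounted for most of that gap, with 3299 ± 854 in 4v and 15928 ± 5100 in 0v. They made up 28.4% ± 2.94 of the family sum in 4v and 49.7% ± 4.51 in 0v. The PIP1 genes summed to 4118 ± 565 in 4v and 8511 ± 2507 in 0v, and the PIP2 genes to 3450 ± 525 in 4v and 6962 ± 2295 in 0v. Both PIP groups therefore took a larger share of a smaller sum in 4v, PIP1 35.9% ± 1.22 in 4v and 26.6% ± 1.76 in 0v, and PIP2 30.1% ± 0.579 in 4v and 21.7% ± 2.64 in 0v. The NIP genes summed to 254 ± 22.9 per kb in 4v and 192 ± 47.4 in 0v, and the SIP genes to 377 ± 22.6 in 4v and 441 ± 13.7 in 0v.

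**Figure D2:**
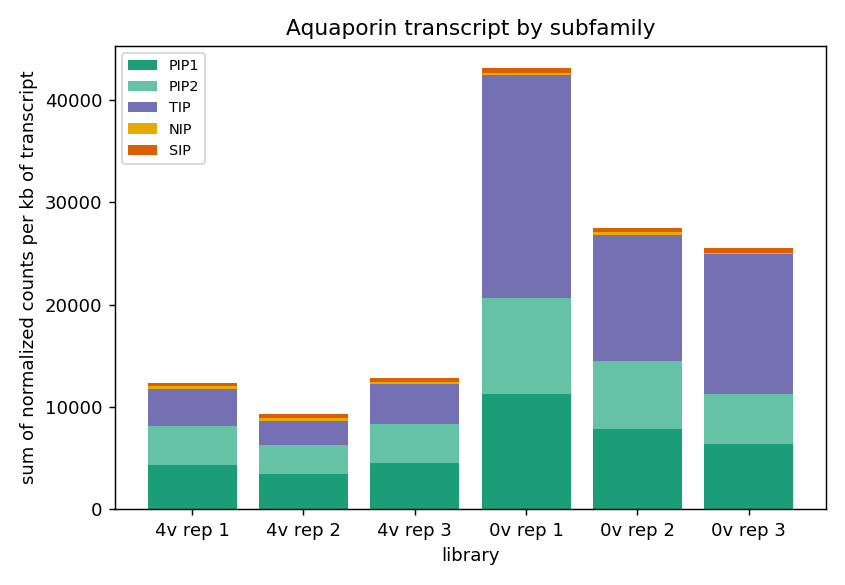
Sum of normalized counts per kb of transcript over the aquaporin genes (vertical axis) in each library (horizontal axis, 4v at the left), stacked by subfamily. The 3 bars of 4v reach 9296 to 12841 and the 3 bars of 0v 25491 to 43111, and the TIP segment is the one that differs most between the groups.

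The order of the members by level also differed between the groups. Per kb of transcript, the highest mean levels in 4v were those of *PIP1-2* (2238 ± 312), *TIP1-2* (1859 ± 497) and *PIP2-7* (1134 ± 191). In 0v they were those of *TIP1-2* (8017 ± 2346), *TIP2-1* (5949 ± 2747) and *PIP1-2* (3534 ± 982; SD, n = 3 for each). The libraries of neighbouring genes overlapped in both orders, except those of *TIP1-2* and *PIP2-7* in 4v. *TIP2-2* stood at rank 25 of 28 in 4v and at rank 13 in 0v, and *PIP1-4* at rank 7 in 4v and rank 12 in 0v.

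The promoters were searched for motifs of cold and abscisic acid responses, to describe what the changed genes share in sequence. Windows from 250 bases before to 50 after each annotated start were searched on both strands for CCGAC (core of the cold and drought element), ACGTG (core of the abscisic acid element), CACGTG (the G-box, which contains ACGTG) and AAAATATCT (the evening element). CCGAC was in 4 of the 28 aquaporin windows (14.3%) and in 15.0% of 27443 promoters of protein-coding genes. The 4 were *PIP1-3* and *TIP1-2*, which fell, *PIP2-5*, which rose, and *TIP1-1*, which did not pass. ACGTG was in 3 of the 28 (10.7%, against 26.7% of all promoters), namely *TIP1-1*, *TIP2-3* and *SIP1-1*. Neither CACGTG (7.68% of all promoters) nor AAAATATCT (2.82%) was in any of the 28. The 250 bases before the start are given for the 4 genes with CCGAC, because they went in different directions with the same motif, and for *TIP2-2*, which fell most and held none of the 4 motifs. Sequences are from the RefSeq genome TAIR10.1, 5′ to 3′ on the strand of the gene, with motif matches in capitals (GTCGG is CCGAC and CACGT is ACGTG read from the opposite strand). The match to CCGAC began 124 bases before the start in *PIP2-5*, 134 in *PIP1-3*, 123 in *TIP1-2* and 51 in *TIP1-1*, and all 4 were in the reverse orientation.
PIP2-5 (chr3:20301509-20301758, plus strand): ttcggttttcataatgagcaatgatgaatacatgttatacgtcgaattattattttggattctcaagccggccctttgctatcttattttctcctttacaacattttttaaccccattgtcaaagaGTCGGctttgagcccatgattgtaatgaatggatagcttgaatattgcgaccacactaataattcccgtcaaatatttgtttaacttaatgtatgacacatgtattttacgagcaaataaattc
PIP1-3 (chr1:227544-227793, minus strand): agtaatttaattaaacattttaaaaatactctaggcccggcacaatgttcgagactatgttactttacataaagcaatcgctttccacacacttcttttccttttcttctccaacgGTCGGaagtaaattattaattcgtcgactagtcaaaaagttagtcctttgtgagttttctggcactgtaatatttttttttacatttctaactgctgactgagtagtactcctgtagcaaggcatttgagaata
TIP1-2 (chr3:9723905-9724154, minus strand): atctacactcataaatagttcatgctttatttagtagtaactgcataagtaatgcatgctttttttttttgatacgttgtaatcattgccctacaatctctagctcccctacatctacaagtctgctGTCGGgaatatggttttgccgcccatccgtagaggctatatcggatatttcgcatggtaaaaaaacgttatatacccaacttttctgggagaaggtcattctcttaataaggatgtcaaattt
TIP1-1 (chr2:15445044-15445293, plus strand): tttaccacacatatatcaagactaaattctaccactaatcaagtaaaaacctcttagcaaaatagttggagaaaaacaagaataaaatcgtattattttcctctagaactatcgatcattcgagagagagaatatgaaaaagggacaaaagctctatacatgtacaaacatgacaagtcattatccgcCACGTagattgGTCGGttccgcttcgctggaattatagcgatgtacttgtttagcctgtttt
TIP2-2 (chr4:9698690-9698939, plus strand): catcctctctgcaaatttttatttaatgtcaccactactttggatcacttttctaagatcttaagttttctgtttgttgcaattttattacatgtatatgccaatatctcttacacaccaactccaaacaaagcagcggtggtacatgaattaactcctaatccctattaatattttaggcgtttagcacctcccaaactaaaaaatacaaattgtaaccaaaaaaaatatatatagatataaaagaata
A match is a string of letters and not a shown binding site.

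Among the tonoplast channels, *TIP2-2* (AT4G17340, chr4:9698940-9700472) showed the greatest fall of the family. It had 21.3, 18.6 and 19.9 normalized counts in the 4v libraries (7, 92 and 7 reads), against 1103, 742 and 421 in the 0v libraries (323, 230 and 1600 reads). The 4v values were nearly equal and all far below the lowest 0v value. *TIP2-2* changed by -4.88 on the log2 scale (SE 0.34, adjusted p = 0.00111, limma), and the mean level in 0v was 37.9 times that in 4v. The fall was -4.23 between the deep libraries and -5.21 among the shallow ones.

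Its close relative *TIP2-3* (AT5G47450, chr5:19248249-19249622), a tonoplast channel that passes ammonia and is known from roots, had 3.05, 1.42 and 0 normalized counts in 4v, from 1, 7 and 0 reads. In 0v it had 129.7, 67.8 and 36.6 normalized counts, from 38, 21 and 139 reads. The transcript was thus near the limit of detection in all 4v libraries, with no overlap between the groups. Its log2 fold change was -3.77 (SE 0.55, adjusted p = 0.00858, limma), and it ranged from -5.75 to -2.31 over the alternatives tried, with few reads behind each 4v value.

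*TIP2-1* (AT3G16240, chr3:5505360-5507050), a vacuolar channel for water and ammonia, was the second most abundant aquaporin per kb in 0v. It had 1306, 633 and 1227 normalized counts in 4v, against 10811, 5646 and 4765 in 0v. Every 4v library lay below the lowest 0v library by several fold. The fall was -2.72 on the log2 scale (SE 0.39, adjusted p = 0.00813, limma). A gene on the opposite strand, AT3G16250, overlaps *TIP2-1* by 565 bases, together with AT3G03265, and the sources used here do not say whether reads were counted by strand. AT3G16250 had 140.4 to 182 normalized counts in 4v, against 76.0 to 218 in 0v, far fewer than *TIP2-1*, and did not pass (0.12 on the log2 scale, adjusted p = 0.858, limma).

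*TIP1-2* (AT3G26520, chr3:9722443-9723904), one of the common vacuolar water channels of vegetative tissue, was the most abundant aquaporin per kb in 0v. Its values were 2464, 1727 and 3004 normalized counts in 4v, against 12899.6, 7001 and 11127 in 0v. All 0v values were far above the highest 4v value. *TIP1-2* changed by -2.10 on the log2 scale (SE 0.30, adjusted p = 0.0082, limma). With the 4 shallow libraries alone it was -1.80 and did not pass (adjusted p = 0.0558).

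*TIP1-1* (AT2G36830), the closest relative of *TIP1-2*, had 743, 531 and 647 normalized counts in 4v, against 2113, 1862 and 865 in 0v. The groups did not overlap, but 0v replicate 3 came close to the 4v values. With a log2 fold change of -1.24 (SE 0.34) it lay just outside the threshold (adjusted p = 0.0528, limma), and without 0v replicate 3 it passed at -1.64 (adjusted p = 0.00293). *TIP4-1* (AT2G25810), known mainly from roots, had few reads in the shallow libraries (6 to 14) and overlapping values, 13.8 to 34.1 normalized counts in 4v, against 24.2 to 45.2 in 0v (log2 fold change -0.72, adjusted p = 0.283, limma).

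Markers of root tissue went both ways between the groups, with a median log2 fold change of -0.93 over the 11 tested. Of these 11 root markers, 1 fell and 0 rose (6.99% and 6.46% of all genes tested). The one that fell was *PYK10*, a beta-glucosidase of root and hypocotyl endoplasmic reticulum bodies, which averaged 6700.4 ± 1535 normalized counts in 4v, against 17458 ± 3456 in 0v (-1.39 on the log2 scale, adjusted p = 0.0202, limma). The summed level of the root markers was 5654 to 8913 normalized counts in 4v and 14164 to 20713 in 0v. Without *PYK10* the sums were 712 to 1142 in 4v and 697 to 1225 in 0v, ranges that overlap almost wholly. The 4 genes *CASP1* to *CASP4*, which build the Casparian strip of the root endodermis, summed to 69.7 to 167 in 4v and 203 to 381 in 0v, and none of them passed. The root marker *PHT1;1* averaged 176 ± 39.7 in 4v, against 347 ± 119.7 in 0v, without overlap. It did not pass either (-0.93 on the log2 scale, adjusted p = 0.0727, limma). Other root markers had higher means in 4v without passing, among them the iron transporter *IRT1* (226 ± 117 in 4v, against 67.0 ± 49.9 in 0v), the root patterning gene *SCR* (271 ± 7.29 in 4v, against 205 ± 39.5 in 0v) and *PRP3* (46.6 ± 12.2 in 4v, against 27.5 ± 11.1 in 0v). At an unadjusted p under 0.05 5 of the 11 root markers were lower, 3 of them *CASP* genes, and 1 was higher (limma, 15.5% and 16.5% of all genes tested). With edgeR 1 root marker fell and 0 rose, with DESeq2 3 fell and 0 rose, and with limma-voom 6 fell, all 4 *CASP* genes among them, and 2 rose. Over all genes tested, 7.17%, 8.35% and 13.8% fell and 5.64%, 6.62% and 14.9% rose with edgeR, DESeq2 and limma-voom. None of the 14 root markers with values was at 0 in all libraries of a group. The part of root tissue in the fall of the TIP genes was not tested. The 7 leaf markers had a median log2 fold change of -0.92, close to that of the root markers. Of these 7, 2 fell and 0 rose (6.99% and 6.46% of all genes tested), and 4 fell with DESeq2 (8.35% of all genes). The 2 were the photosystem I gene *PSAF* (10263 ± 1342 in 4v, against 20632 ± 3802 in 0v) and the carbonic anhydrase *CA1* (2125 ± 491 in 4v, against 8592 ± 3359 in 0v). The other 5 did not pass, and among them *LHCB1.1* had a higher mean in 4v (97581 ± 30480 in 4v, against 67208 ± 28827 in 0v). Summed over all 7 leaf markers, the level was 176358 to 290376 in 4v and 165809 to 385046 in 0v. The 8 seed markers listed were not analysed here.

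**Figure D3:**
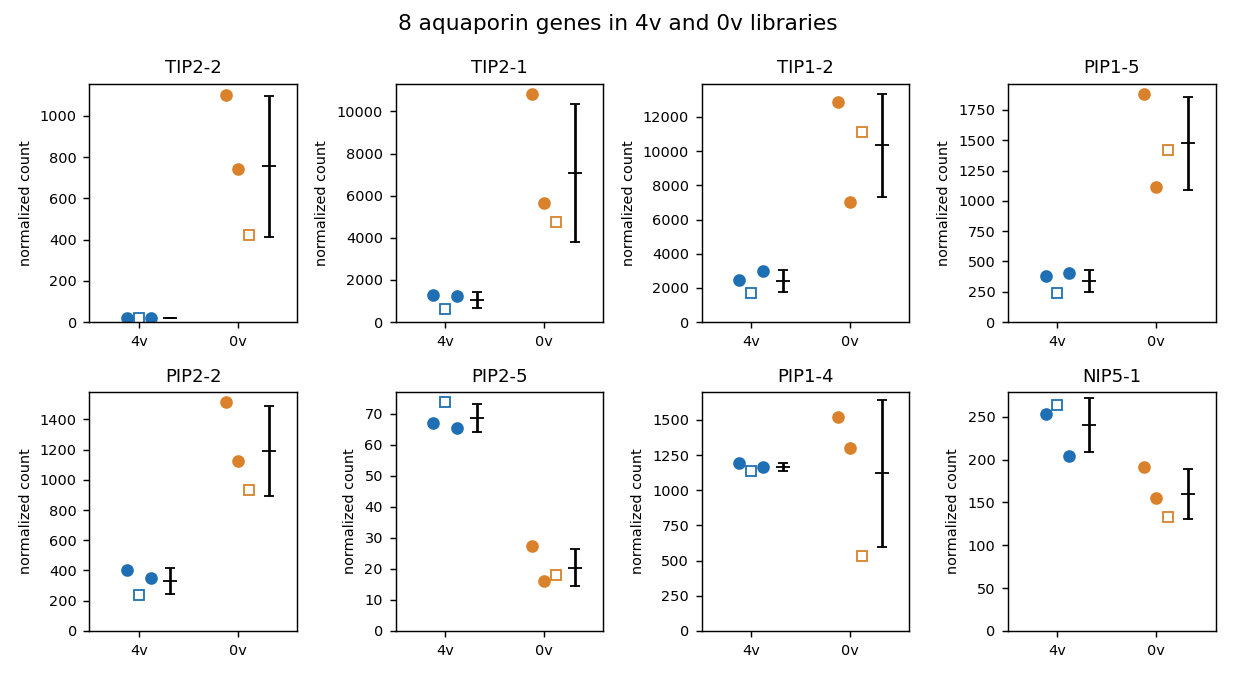
Normalized counts (vertical axes, each starting at 0) of 8 aquaporin genes in the 4v (blue, left) and 0v (orange, right) libraries, with the mean and SD of each group in black and the deep library of each group as an open square. The 4v points lie below all 0v points for *TIP2-2*, *TIP2-1*, *TIP1-2*, *PIP1-5* and *PIP2-2*, above them for *PIP2-5* and *NIP5-1*, and among them for *PIP1-4*, whose deep 0v library stands at 530.5.

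Of the plasma membrane channels, 3 of the 5 PIP1 genes fell. *PIP1-5* (AT4G23400, chr4:12220641-12222468) had 381, 239 and 403 normalized counts in 4v, against 1884, 1116 and 1418 in 0v. No 4v value reached the lowest 0v value. The log2 fold change of *PIP1-5* was -2.10 (SE 0.26, adjusted p = 0.00589, limma).

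*PIP1-3* (AT1G01620, chr1:225665-227543) followed with 1048, 689 and 1051 normalized counts in 4v, against 4386, 2729 and 2304 in 0v (log2 fold change -1.72, SE 0.28, adjusted p = 0.0125, limma). *PIP1-1* (AT3G61430, chr3:22733243-22735394) had 627, 553 and 687 in 4v, against 2539.6, 1829 and 1433 in 0v (-1.60, SE 0.22, adjusted p = 0.00753, limma). In both genes the deep library was the lowest of its group, and the groups were still well apart. The calls for *PIP1-1*, *PIP1-3* and *PIP1-5* held under all 17 alternatives tried.

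*PIP1-2* (AT2G45960), a channel that contributes to the water conductance of roots and rosettes, was the most abundant aquaporin per kb in 4v. It had 3557, 2844 and 3731 normalized counts in 4v, against 6919, 5094 and 3984 in 0v. The lowest 0v value was only a little above the highest 4v value. Its log2 fold change of -0.63 (SE 0.24) did not pass (adjusted p = 0.120, limma).

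*PIP1-4* (AT4G00430) was the one PIP1 gene without a negative log2 fold change. It had 1197, 1138 and 1167 normalized counts in 4v, against 1522, 1303 and 530.5 in 0v. The 4v libraries were tightly grouped, whereas in 0v the deep library was far below the other 2. Its log2 fold change was 0.20 (SE 0.37, adjusted p = 0.752, limma), 1.09 between the deep libraries and -0.25 among the shallow ones, so that no direction can be given for *PIP1-4*.

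*PIP2-5* (AT3G54820, chr3:20301759-20304309) was the one aquaporin that rose. This PIP2 water channel had 67.0, 74.0 and 65.3 normalized counts in 4v (22, 365 and 23 reads), against 27.3, 16.1 and 17.9 in 0v (8, 5 and 68 reads). Its 4v values were close together and the mean in 4v was 3.36 times that in 0v. The rise was 1.60 on the log2 scale (SE 0.29, adjusted p = 0.0157, limma), 1.83 between the deep libraries and 1.48 among the shallow ones. It remained a gene of low level, at rank 22 of 28 per kb in 4v and rank 26 in 0v. The call was lost with the 4 shallow libraries alone (adjusted p = 0.107) and when any of the 4v replicates 1, 2 or 3 was left out (adjusted p = 0.0639, 0.0708 and 0.0581), with the log2 fold change between 1.48 and 1.63.

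*PIP2-2* (AT2G37170, chr2:15613368-15615022), a major contributor to water uptake by roots, had 402, 237 and 352 normalized counts in 4v, against 1516, 1126 and 932 in 0v. The highest 4v value was far below the lowest 0v value. Its log2 fold change was -1.84 (SE 0.25, adjusted p = 0.00745, limma), and it passed under all 17 alternatives.

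*PIP2-3* (AT2G37180, chr2:15617635-15619155) lies next to *PIP2-2* on chromosome 2 on the opposite strand, and the pair are near-identical copies. Over 858 coding bases they differed at 45 (94.8% identity), the longest identical run was 242 bases, and 192 stretches of 75 bases, the read length, occurred in both transcripts (15.1% of the stretches of *PIP2-2* and 16.8% of those of *PIP2-3*). No other pair of the 28 shared such a stretch. Bases 1 to 90 of both coding sequences are printed with the 10 differing bases in capitals. Differences are denser in this window than over the whole 858 bases, and no stretch of 75 bases within it is shared.
PIP2-2: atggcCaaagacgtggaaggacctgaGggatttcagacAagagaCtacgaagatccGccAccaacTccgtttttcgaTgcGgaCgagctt
PIP2-3: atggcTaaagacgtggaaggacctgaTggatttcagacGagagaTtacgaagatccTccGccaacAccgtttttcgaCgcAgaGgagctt
*PIP2-3* had 88.3, 50.9 and 51.1 normalized counts in 4v, against 249, 145 and 103 in 0v. The groups did not overlap, but the log2 fold change of -1.29 (SE 0.37) did not pass (adjusted p = 0.0603, limma). *PIP2-3* passed under 6 of 17 alternatives, among them DESeq2 (adjusted p = 0.0264), limma-voom (0.0288), leaving out 0v replicate 3 (0.0274) and quantile normalization (0.0488). Since reads from the shared stretches fit both genes, the levels of *PIP2-3*, the rarer of the pair, are uncertain.

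The 3 most abundant PIP2 genes per kb were *PIP2-1*, *PIP2-7* and *PIP2-6*, and none of them passed. *PIP2-1* (AT3G53420), a channel of roots and guard cells whose transport to the membrane is well studied, had 1833, 1408 and 1839.9 normalized counts in 4v, against 5943, 4097 and 2359 in 0v. With a log2 fold change of -1.20 (SE 0.33) it lay just outside the threshold (adjusted p = 0.0547, limma), and it passed without 0v replicate 3 at -1.55 (adjusted p = 0.0062). Its groups did not overlap, and 0v replicate 3 was again the 0v value nearest to 4v. Both *PIP2-1* and *TIP1-1* also passed with edgeR, DESeq2 and limma-voom. Each of these genes passed under 7 of 17 alternatives. Neither passed with the replicate block, with quantile normalization or when a single library other than 0v replicate 3 was left out.

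*PIP2-7* (AT4G35100) had 1900.2, 1479 and 2076 normalized counts in 4v, against 4547, 3323 and 1917 in 0v (log2 fold change -0.77, SE 0.32, adjusted p = 0.146, limma). Here 0v replicate 3 lay inside the range of the 4v libraries. *PIP2-6* (AT2G39010), a channel known mainly from leaves, had 1946, 1548 and 1874 in 4v, against 2908, 2026 and 2794 in 0v (-0.51, SE 0.19, adjusted p = 0.113, limma), with a small gap between the groups. The remaining *PIP2-4* (AT5G60660) and *PIP2-8* (AT2G16850) were low genes whose groups overlapped, and both had a log2 fold change of 0.02. *PIP2-4* ranged from 27.0 to 68.1 normalized counts in 4v, against 25.8 to 51.2 in 0v, and *PIP2-8* from 42.4 to 85.2 in 4v, against 42.9 to 67.8 in 0v. The sign of both turned negative without 4v replicate 3 (-0.34 and -0.25) and with quantile normalization (-0.16 and -0.10).

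**Figure D4:**
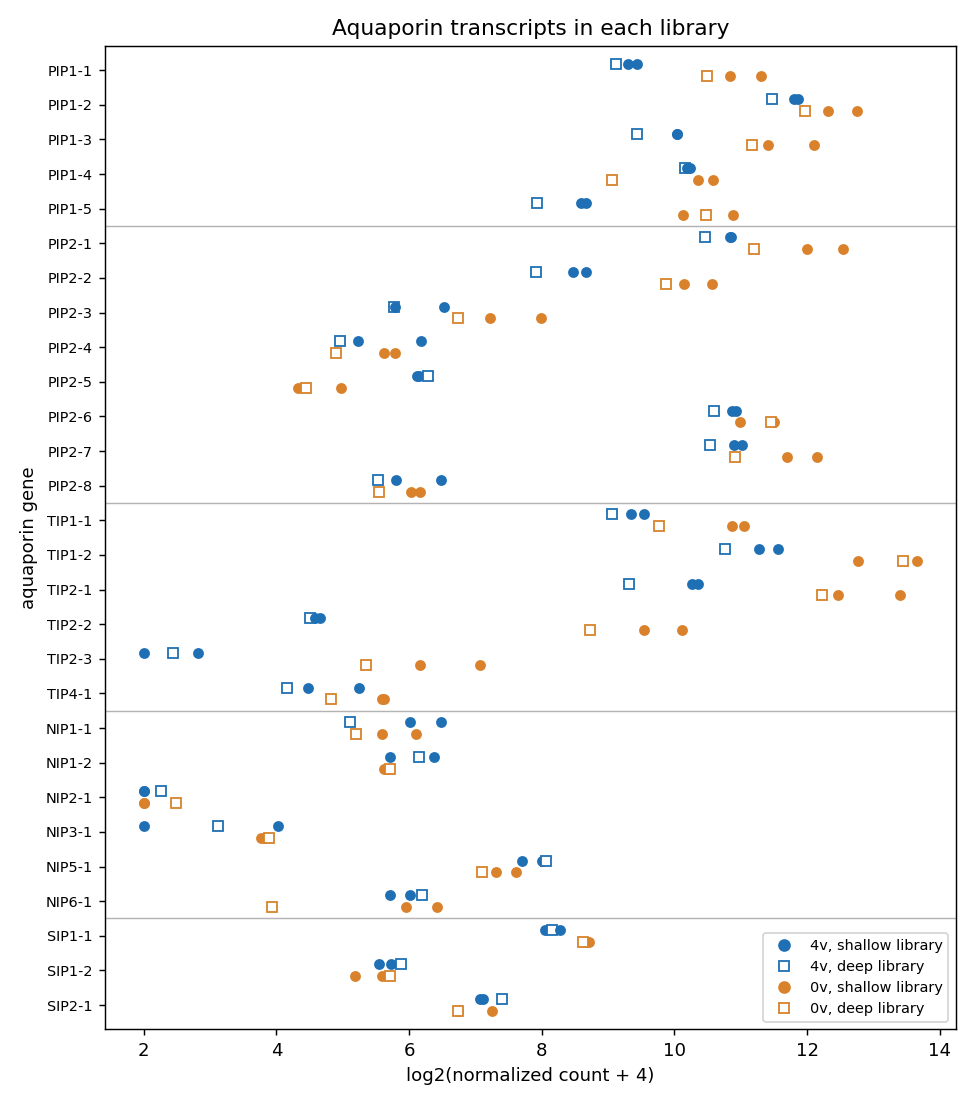
Log2(normalized count + 4) of the 28 aquaporin genes (vertical axis) in every library (horizontal axis), 4v in blue above 0v in orange for each gene, with the deep library of each group as an open square. The groups are farthest apart at *TIP2-2* and *TIP2-3*, and the deep 0v library lies far below the other 0v libraries at *PIP1-4* and *NIP6-1*.

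None of the NIP genes passed. *NIP5-1* (AT4G10380), the boric acid channel through which roots take up boron when it is scarce, had 253, 263 and 204 normalized counts in 4v, against 191, 155 and 133 in 0v. All 4v values were above all 0v values, by a narrow margin. Its log2 fold change of 0.58 (SE 0.19, 95% confidence interval 0.13 to 1.03) did not pass (adjusted p = 0.0854, limma).

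*NIP6-1* (AT1G80760), which carries boric acid in the nodes of the shoot, had 60.9, 69.1 and 48.3 normalized counts in 4v, against 81.9, 58.1 and 11.3 in 0v. The low value was that of the deep 0v library, and the groups overlapped. *NIP6-1* changed by 0.53 on the log2 scale (SE 0.62, adjusted p = 0.587, limma), but 2.26 between the deep libraries and -0.33 among the shallow ones. *NIP6-1* overlaps AT1G80750 on the opposite strand by 26 bases, and AT1G80750 rose (0.83, adjusted p = 0.0259, limma).

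*NIP1-2* (AT4G18910), known for carrying aluminium malate in roots, had 79.2, 66.7 and 48.3 normalized counts in 4v, against 47.8, 45.2 and 48.2 in 0v (0.40, SE 0.25, adjusted p = 0.315, limma). The lowest 4v value equalled the highest 0v value almost exactly. *NIP1-1* (AT4G19030), its nearest relative, ranged from 30.4 to 85.2 in 4v, against 32.9 to 64.5 in 0v (0.23, adjusted p = 0.735, limma). *NIP2-1* (AT2G34390), a channel known for passing lactic acid and for its rise in low oxygen, had 0, 4 and 0 reads in 4v and 0, 0 and 6 in 0v, and it overlaps AT2G34380 and AT2G08660 on the opposite strand by 1462 bases. *NIP3-1* (AT1G31885) had 4, 23 and 0 reads in 4v and 3, 3 and 41 in 0v, and neither of these was tested.

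The endoplasmic reticulum channel *SIP1-1* (AT3G04090, chr3:1071984-1074244) had 262, 281 and 307 normalized counts in 4v, against 416, 394 and 389.7 in 0v. The replicates of each group were close together and the groups did not overlap. Its log2 fold change of -0.49 (SE 0.13, adjusted p = 0.0485, limma) was the smallest of the 10 that passed. It no longer passed with the 4 shallow libraries alone (adjusted p = 0.112), with quantile normalization (0.0704) or with DESeq2 (0.0574), nor without any one of 5 libraries, at adjusted p values up to 0.148.

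*SIP2-1* (AT3G56950) had 134, 165 and 131 normalized counts in 4v, against 102, 148 and 103 in 0v (0.29, SE 0.21, adjusted p = 0.390, limma). *SIP1-2* (AT5G18290) had 48.7, 54.5 and 42.6 in 4v, against 44.4, 32.3 and 48.4 in 0v (0.21, SE 0.26, adjusted p = 0.611, limma). Both overlapped between the groups. *SIP1-2* overlaps AT5G02885 and AT5G18300 on the opposite strand by 653 bases, and AT5G18300 had 3.05 to 22.7 normalized counts in 4v, against 3.41 to 9.68 in 0v. *SIP2-1* also overlaps the abundant gene AT3G56940 on the opposite strand, at 5446 to 7456 normalized counts in 4v, against 7843 to 14115 in 0v.

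Genes that act with aquaporins were read from the same test. Of 10 tested regulators of aquaporin activity and trafficking, 2 fell and 0 rose (6.99% and 6.46% of all genes tested). At an unadjusted p under 0.05 2 of the regulators were lower and 1 was higher (limma, 15.5% and 16.5% of all genes tested). The number that rose was 0 with edgeR, 0 with DESeq2 and 1 with limma-voom (5.64%, 6.62% and 14.9% of all genes tested). With each of these tools 2 fell (7.17%, 8.35% and 13.8% of all genes tested, in the same order). The receptor kinase *QSK1*, a partner of *SIRK1* in aquaporin phosphorylation, averaged 157 ± 17.5 normalized counts in 4v, against 265 ± 45.1 in 0v (log2 fold change -0.74, adjusted p = 0.0400, limma). *RMA2*, one of the membrane-bound ubiquitin ligases related to *RMA1*, averaged 71.3 ± 14.6 in 4v, against 295 ± 149.6 in 0v (-1.90, adjusted p = 0.0166, limma). The kinase *OST1*, which phosphorylates *PIP2-1* in guard cells, averaged 191 ± 30.4 in 4v, against 129 ± 17.7 in 0v (0.55) and did not pass (adjusted p = 0.102, limma).

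Both tested boron exporters rose (6.46% of all genes tested rose), beside a boric acid channel that did not pass. *BOR1*, which loads boron into the xylem, had 923, 714 and 826 normalized counts in 4v, against 188, 265 and 292 in 0v (log2 fold change 1.73, SE 0.20, adjusted p = 0.00476, limma). *BOR2*, a boron exporter of the root, had 1851, 1519 and 1119 in 4v, against 331, 509.7 and 498 in 0v (1.73, SE 0.24, adjusted p = 0.00787, limma). Every 4v value of both genes exceeded every 0v value.

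Genes of the proton pumps in the same membranes were read in the same way. Of 6 tested genes of vacuolar pumps 1 fell and 0 rose (6.99% and 6.46% of all genes tested). The gene that fell was *VHA-B1*, which averaged 689 ± 54.1 normalized counts in 4v, against 1010.1 ± 72.2 in 0v (log2 fold change -0.55, adjusted p = 0.0346, limma). At an unadjusted p under 0.05 1 of the 6 was lower and 1 higher (limma, 15.5% and 16.5% of all genes tested). Of 5 plasma membrane proton pumps none passed, among them *AHA3* of the phloem, which averaged 210.2 ± 35.9 in 4v, against 78.3 ± 69.8 in 0v (1.70, adjusted p = 0.0803, limma). The log2 fold change of *AHA3* was 0.10 between the deep libraries and 2.50 among the shallow ones, with 14 and 9 reads in the shallow 0v libraries. At an unadjusted p under 0.05 1 of the 5 was lower and 1 higher (limma, 15.5% and 16.5% of all genes tested). The number called was 0 with edgeR, 0 with limma-voom and 1, lower, with DESeq2. These tools called 7.17%, 13.8% and 8.35% of all genes tested lower and 5.64%, 14.9% and 6.62% higher, in that order.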

How the data were processed

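Wild-type seedlings were sequenced in 3 libraries per group (4v and 0v). The authors quantified read pairs of 75 bases with Kallisto against TAIR10 and normalized the counts with DESeq2 (no versions given). The deposited signal is a read count divided by a size factor. The step of 1 read gave whole reads for 100% of 110208 values (tolerance 0.05 of a read plus 1e-06 per read). The table also holds the authors' mean, fold change and p-values of their own comparison, and 20 value columns with no sample name, none of which were used. Of 18369 genes, 1 with displaced values was left out.

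Log2(normalized count + 4) was tested with limma 3.58.1 (R 4.3.3, lmFit and eBayes with trend, two-sided). The 16771 genes whose mean was 10 or more were tested, and p-values were adjusted over them by Benjamini-Hochberg. P-values measure the spread between libraries of separate plates, which also holds counting noise and differences in depth. Alternatives were pseudocounts of 1 and 16, no filter or a mean of at least 50, the replicate block, quantile normalization, 3 tools on whole reads (limma-voom, DESeq2 1.42.0 and edgeR 4.0.16), thinning to the shallowest library, the 4 shallow libraries alone and leaving out each library. Fits were tested on simulated data. RefSeq TAIR10.1 gave transcript lengths (the longest per gene), strands and promoters, and 18306 of 18307 matched genes had the deposited coordinates. Protein sequences were not used here.

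The aquaporins and lists were chosen with earlier results of these data known. Given in full are aquaporins that passed and the 3 with the highest mean per kb of each subfamily, others by range or where a copy, a contrary value or few reads matter, and at most 4 genes of each list. The sum over *CASP1* to *CASP4* and the markers *IRT1*, *SCR*, *PRP3* and *LHCB1.1* were chosen after their values were seen.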

Additional observations from a re-analysis of the deposited data

How the results depend on the processing

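All 10 called aquaporins had the same direction in the deep pair and in the 4 shallow libraries, and *PIP1-1*, *PIP1-3*, *PIP1-5*, *PIP2-2*, *TIP2-1*, *TIP2-2* and *TIP2-3* passed under every alternative that tested them. Shallow libraries gave 5 to 38 reads for the low members *PIP2-5* and *TIP2-3* in 0v, which limits their precision. The number of aquaporins that rose was 0 at a mean of at least 50, where *PIP2-5* was not tested, 0 with the 4 shallow libraries alone, 3 with limma-voom (with *NIP5-1* and *NIP6-1*) and 0 to 1 leaving out single libraries. The number that fell was 14 with DESeq2, 13 with limma-voom, 11 with edgeR and 8 to 14 leaving out single libraries, the highest without 0v replicate 3. Over all genes, 1389 fell with DESeq2 (8.35%) and 1202 with edgeR (7.17%), and 2498 rose and 2318 fell with limma-voom (14.9% and 13.8%). With the shallow libraries 555 rose and 587 fell, and leaving out single libraries gave 248 to 1511 rises and 387 to 1438 falls. The cause was not tested.

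Uncalled members turned negative as follows. *PIP1-4* was at -0.25 and *NIP6-1* at -0.33 with the shallow libraries. *PIP2-4* was at -0.16 with quantile normalization and -0.0024 with the shallow libraries. *PIP2-8* was at -0.10 with quantile normalization and -0.0068 with limma-voom. Leaving out single libraries gave log2 fold changes from -0.27 to 0.49 for *PIP1-4*, -0.34 to 0.27 for *PIP2-4*, -0.25 to 0.22 for *PIP2-8*, -0.071 to 0.62 for *NIP1-1* and -0.22 to 1.03 for *NIP6-1*, negative without 0v replicate 3 for all of these but *NIP1-1* and without 4v replicate 3 for *PIP2-4*, *PIP2-8* and *NIP1-1*. The deep pair alone, an alternative chosen after seeing the data, reversed no called aquaporin, but 5 uncalled members differed in sign between the deep pair and the shallow libraries, with *NIP1-1* at -0.10 and *PIP2-8* at -0.02 in the deep pair.

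Whether the replicate numbers pair the libraries is not known. Deviations of same-numbered libraries correlated at 0.07, -0.13 and -0.13, while those of the deep libraries correlated at 0.27, and not every library correlated best with its own number. The deep library is replicate 2 in 4v and replicate 3 in 0v, so these correlations mix depth with number and cannot show whether the numbers pair. With the number as a block 481 genes rose and 567 fell, and 0 aquaporins rose and 9 fell, with *PIP2-5* at an adjusted p of 0.0553 and *SIP1-1* at 0.121 (limma) and *PIP2-3* passing at 0.0390.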
